A study of Zea mays with 46 samples.

Results

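Silk of maize plants with the P1-rr allele was set against silk of the inbred B73, with 3 RNA-seq libraries in each group. These are 6 of the 27 RNA-seq libraries of a series of 46 samples, and they were chosen by their labels alone. P1-rr gives red pericarp (the outer wall of the kernel) and a red cob, and B73 is the inbred whose genome serves as the maize reference. All silks were unpollinated, at 0 days after pollination, with exposed silks of a few centimetres. They were grown in the same field season, and each replicate combined silk of 2 plants. The other silk groups used here are P1-ww, an allele with colourless pericarp and cob, the F1 hybrid of B73 and A632, and the inbred A632, with 3 libraries each. Pericarp of P1-rr and P1-ww plants at 14 days after pollination, and leaf protoplasts of the F1 hybrid that carried either an empty vector or, as 35S:P1, P1 under the constitutive 35S promoter, gave 3 libraries per group and served to form gene lists. The labels call the pericarp samples kernels in their tissue field, and the protoplasts came from leaves of young seedlings.

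P1 is a MYB transcription factor that switches on genes of the flavonoid pathway. In pericarp and cob its targets lead to the red phlobaphene pigments, and in silk they lead to maysin, a flavone that is toxic to the corn earworm. B73 is itself not a P1 null: it carries P1-wr, an allele with colourless pericarp and red cob.

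Several features of the design bear on every value given here. The labels give P1-rr and P1-ww the inbred name A619, so that in P1-rr against B73 the allele and the inbred background cannot be told apart. Reads were placed on the B73 genome, and a gene that is missing from the P1-rr stock or diverged there reads low in P1-rr whatever its expression. Gene identifiers are those of the B73 RefGen_v4 annotation, which the files do not pair with gene symbols. For this reason P1 itself, the flavonoid genes and the markers of silk or of other cell types were not looked up, and no gene below is given a role. In whole silk, fewer cells of a type and less RNA per cell cannot be told apart.

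Library totals were 24346708 to 28224572 counts in P1-rr and 29962988 to 36422825 counts in B73. Levels are given as CPM, counts scaled to the total of their library. Between 20342 and 20460 genes reached 1 CPM in P1-rr libraries, against 20160 to 20627 in B73 libraries. In a chi-square test of counts between replicates, the statistic over its degrees of freedom was 10.3 to 22.7 in P1-rr and 10.7 between B73 replicates 1 and 3, where sampling noise alone gives about 1. B73 replicate 2 stood further from its group, at 67.5 and 54.8. The number of calls, the shares of the shared list and the changes of several named genes are therefore also given without it. In a principal component analysis of the 15 silk libraries, the first component held 55.5% of the variance. P1-rr libraries lay at 140.1 to 143.9 on it and P1-ww libraries at 154 to 159.2, while the F1, A632 and B73 libraries lay between -106.6 and -90.4. The largest axis of these libraries therefore set the stocks labelled A619 apart from the other groups, with P1-rr and P1-ww close together on it.

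Most genes measured in silk differed between P1-rr and B73. Of 25250 genes that passed the filter on low counts, 16116 were called, which is 63.8%, by edgeR's quasi-likelihood test at a Benjamini-Hochberg adjusted p under 0.05. Of these, 8466 genes (33.5% of those tested) were higher in P1-rr and 7650 (30.3%) were lower. A change of 2-fold or more was called for 8697 genes (34.4%), with 4357 higher (17.3%) and 4340 lower (17.2%). The median log2 change over all genes tested was 0.05. Leaving out any of the 6 libraries gave 14757 to 15518 calls, with 15518 when B73 replicate 2 was left out. A fit over all 27 libraries, pericarp and protoplasts included, called 10117. Which direction held more calls depended on the fit. Without B73 replicate 2, 7835 genes were higher in P1-rr and 7683 lower. The 6 libraries alone gave 7313 higher and 7550 lower, and all 27 libraries 4916 higher and 5201 lower.

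Called differences ranged from under 2-fold to far above 16-fold. Among called genes, 4109 were higher and 3310 lower by less than 2-fold, together 46.0% of the calls. Between 2-fold and 4-fold lay 1865 higher and 2082 lower genes, and between 4-fold and 16-fold 1162 higher and 1337 lower genes. Differences of 16-fold or more were called for 1330 genes that were higher in P1-rr and 921 that were lower, or 14.0% of the calls. The median absolute log2 change of called genes was 1.11, with quartiles of 0.60 and 2.36 and a 90th percentile of 5.17. For comparison, the standard deviation of log2(CPM + 0.5) within a group had a median over genes of 0.14 in P1-rr and 0.17 in B73. The 3 P1-rr libraries lay above all B73 libraries for 9321 tested genes and below all of them for 8091, together 69.0% of the genes tested, beside the 63.8% called.

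**Figure D1:**
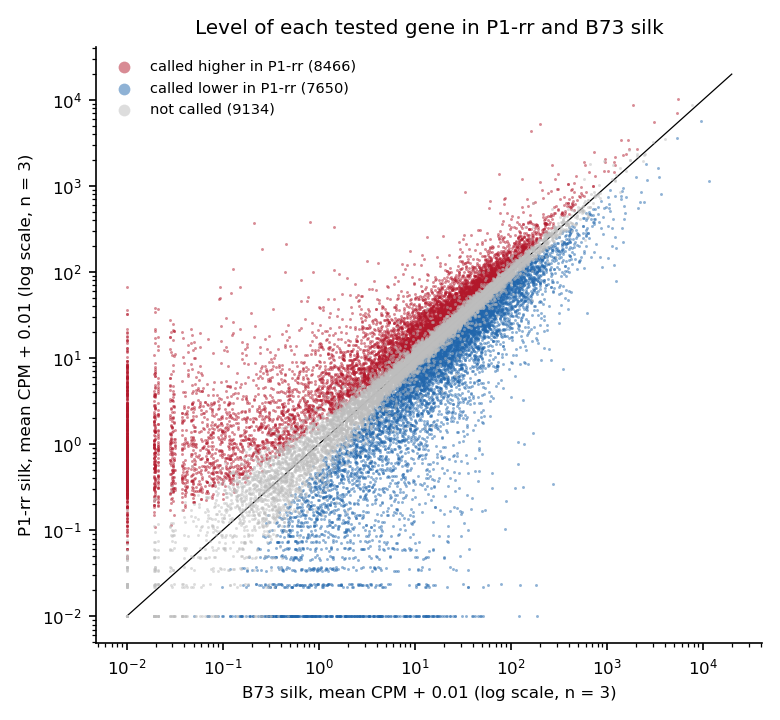
Mean level of each of the 25250 tested genes in P1-rr silk (vertical axis) and B73 silk (horizontal axis), in CPM + 0.01 on log scales; the line marks equal levels. Red points are the 8466 genes called higher in P1-rr, blue points the 7650 called lower and grey points the genes not called; the columns and rows of points at the left and lower edges are genes with no count or a few counts in B73 or in P1-rr.

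The share of called genes was nearly level across expression, while the size of the differences was not. Genes were called in 57.0% of cases below 1 CPM (mean of both groups) and in 65.8% between 20 and 100 CPM. Calls of 2-fold or more made up 56.3% of tested genes below 1 CPM, 51.9% from 1 to 5 CPM, 31.6% from 5 to 20 CPM and 18.8% from 20 to 100 CPM. Above this the share was larger again, at 21.0% from 100 to 1000 CPM and 35.8% among the 67 genes at 1000 CPM or more. The most abundant transcripts of silk thus differed by 2-fold or more about as often as those from 5 to 20 CPM.

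Differences reached the genes that make up much of the silk RNA. Genes called higher in P1-rr held 45.6% of all counts in P1-rr and 24.4% in B73. Genes called lower held 20.8% in P1-rr and 42.8% in B73. Both sets were chosen by their direction in these libraries, so the side with the larger share was set by that choice. The 20 genes with the highest level in each group had 9 in common, and the 100 highest had 60 in common. Of the 20 highest genes of P1-rr, 12 were called higher there and 2 lower. Of the 20 highest of B73, 3 were called higher in P1-rr and 11 lower. Of the 100 highest of P1-rr, 69 were called, near the 63.8% of all genes tested. Over all genes tested, 33.5% were called higher and 30.3% lower. The highest genes of each group were ranked on the levels compared, so their counts and directions are a description.

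The called genes with the highest level in each direction, given here, differed in level but stayed abundant in both groups. Zm00001d027524 stood at 10726, 8722 and 11709 CPM in P1-rr, against 6987, 3828 and 5780 CPM in B73. The groups did not overlap, and the log2 change was 0.89 ± 0.21 (SE; adjusted p = 0.0021, edgeR). In the fit over all 27 libraries it was 0.83 and no longer called, with an adjusted p of 0.277. Zm00001d004689 had 10243, 7721 and 8480 CPM in P1-rr, against 2523, 880.9 and 2247 CPM in B73, a log2 change of 2.2 ± 0.36 (adjusted p = 0.000126, edgeR). Each P1-rr library was far above each B73 library, and B73 replicate 2 was the lowest of all 6 for both genes. Without B73 replicate 2 the log2 changes were 0.62 for Zm00001d027524 and 1.8 for Zm00001d004689, and both genes stayed called. P1-ww silk was also above B73 in both, at means of 13247 CPM for Zm00001d027524 (adjusted p = 0.000107, edgeR) and 9466 CPM for Zm00001d004689 (adjusted p = 6.84e-05, edgeR). A632 silk had only 3.80 CPM of Zm00001d004689 on average, while F1 silk had 3523 CPM.

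Zm00001d023343, the most abundant of the genes called lower, was held at 1155, 1135 and 1173 CPM in P1-rr, against 14786, 7418 and 12500 CPM in B73. The P1-rr libraries were tightly grouped and far below B73, with a log2 change of -3.35 ± 0.23 (adjusted p = 3.1e-08, edgeR). It averaged 1672 CPM in P1-ww, 7804 CPM in F1 and 9417 CPM in A632 silk, so the stocks labelled A619 were low and the other groups high. Zm00001d023529 stood at 5330, 4964 and 6672 CPM in P1-rr, against 10600, 7479 and 10630 CPM in B73. The groups did not overlap, and the log2 change was -0.77 ± 0.19 (adjusted p = 0.00243, edgeR). In the fit over all 27 libraries it was -0.83 with an adjusted p of 0.185, which ends the call. Without B73 replicate 2 the log2 change was -0.99 for Zm00001d023529 and -3.65 for Zm00001d023343. P1-ww averaged 9925 CPM in this gene and B73 9570 CPM, and P1-rr was below P1-ww by 0.87 on the log2 scale (log2 change -0.87 ± 0.19, adjusted p = 0.00817, edgeR).

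**Figure D2:**
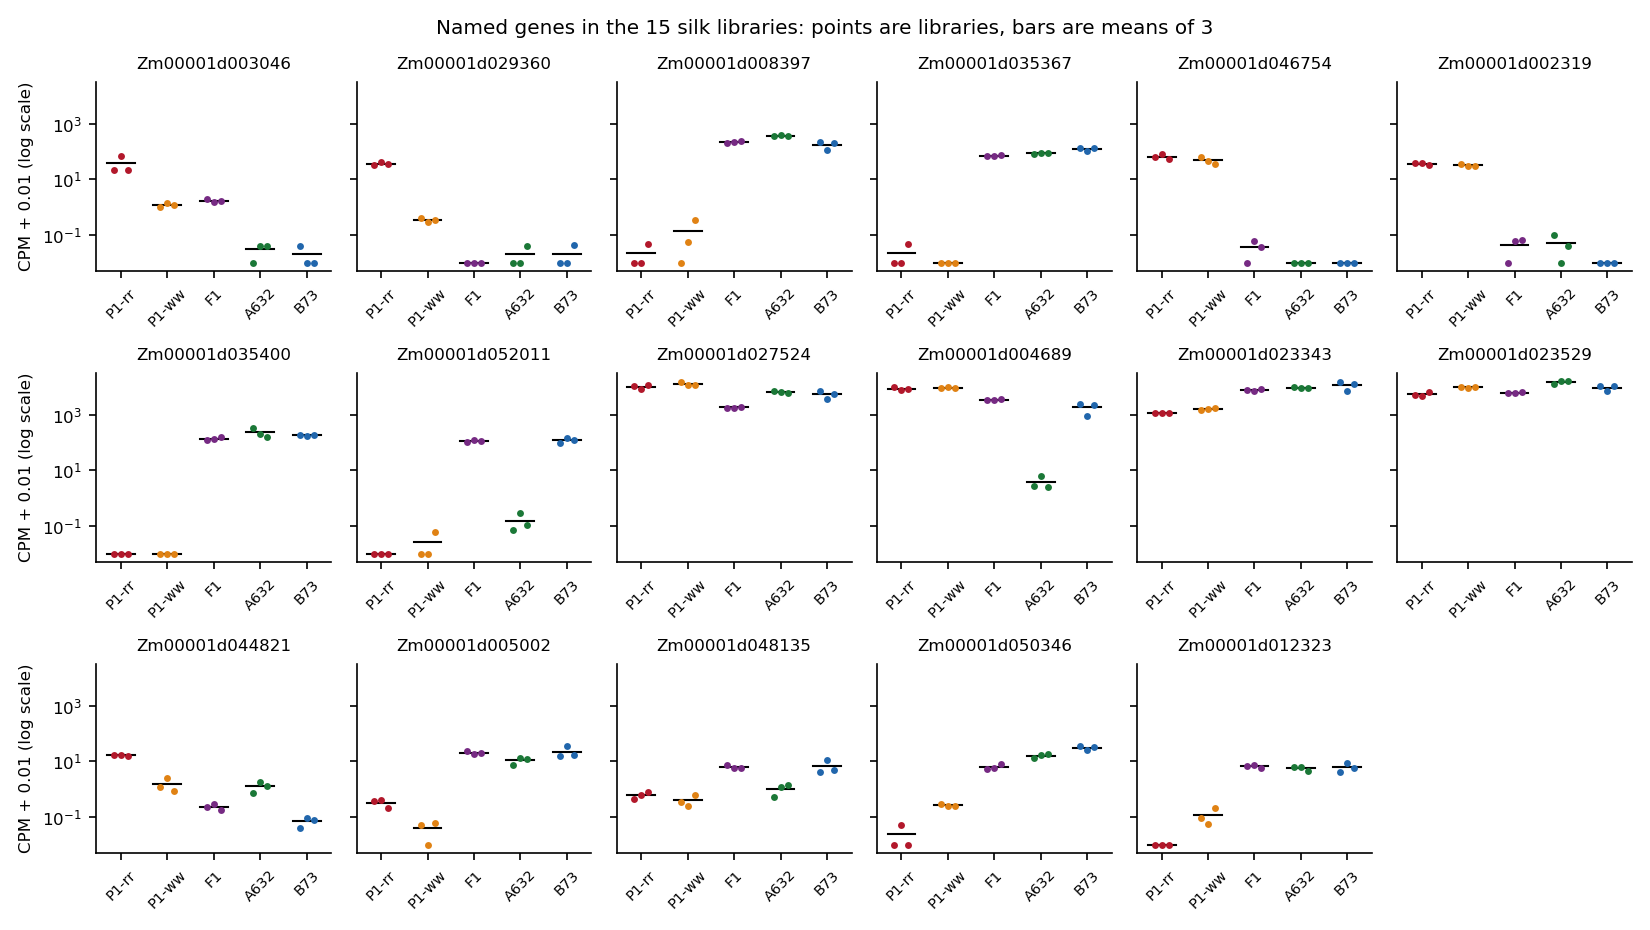
Levels of the 17 genes described by identifier in P1-rr, P1-ww, F1, A632 and B73 silk, in CPM + 0.01 on a log scale; each point is 1 library and each bar the mean of 3. Points on the bottom line at 0.01 have no count. P1-rr was called above P1-ww for Zm00001d003046, Zm00001d029360, Zm00001d044821 and Zm00001d005002, and below it for Zm00001d050346, Zm00001d012323 and Zm00001d023529.

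A set of genes was well read in the silk of 1 stock and scarcely or not at all in the other. At a mean of 5 CPM or more in P1-rr and 0.1 CPM or less in B73 stood 146 genes, of which 62 had no count in any B73 library. Their median level in P1-rr was 8.82 CPM and their highest 67.1 CPM. In the other direction, 162 genes stood at 5 CPM or more in B73 and 0.1 CPM or less in P1-rr, with 76 of them without a count in P1-rr. These had a median of 12.4 CPM and a highest level of 187 CPM in B73. The levels chose these genes, so that their calls in P1-rr against B73 carry no further weight.

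P1-ww silk, whose libraries had no part in that choice, went with P1-rr in most of these genes. Of the 146 genes, 121 were at 5 CPM or more in P1-ww and 1 was at 0.1 CPM or less. The level in P1-ww was a median of 0.934 of that in P1-rr, with quartiles of 0.748 and 1.10. Of the 162 genes in the opposite position, 140 were at 0.1 CPM or less in P1-ww too, 73 of them without a count, and 2 were at 5 CPM or more. Pericarp of the same stocks gave a like picture: 100 of the 146 genes reached 5 CPM in P1-rr pericarp and 97 in P1-ww pericarp, while 130 and 129 of the 162 genes stayed at 0.1 CPM or less in P1-rr and P1-ww pericarp. In 35S:P1 protoplasts of the F1 hybrid, 18 of the 146 and 63 of the 162 genes reached 5 CPM, against 14 and 53 in empty-vector protoplasts.

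The inbred A632 was split over these genes. Of the 146 genes at 0.1 CPM or less in B73, 41 reached 5 CPM in A632 and 60 stood at 0.1 CPM or less. Of the 162 genes at 0.1 CPM or less in P1-rr, 77 reached 5 CPM in A632 and 50 stood at 0.1 CPM or less. For the 41 genes at 5 CPM or more in A632 and 0.1 CPM or less in B73, the level in F1 silk was a median of 0.489 of that in A632 (quartiles 0.399 and 0.591). For the 50 genes at 5 CPM or more in B73 and 0.1 CPM or less in A632, the level in F1 silk was a median of 0.513 of that in B73 (quartiles 0.398 and 0.611), and it was 1.03 of that in B73 where A632 too reached 5 CPM. Where only 1 parent reached 5 CPM and the other stood at 0.1 CPM or less, the F1 level thus lay near the midpoint of the parents. Genes low in B73 are annotated in the B73 genome itself. For genes low in P1-rr, P1-ww or A632, no read count tells an absent or diverged gene from a silent one. This was not tested.

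**Figure D3:**
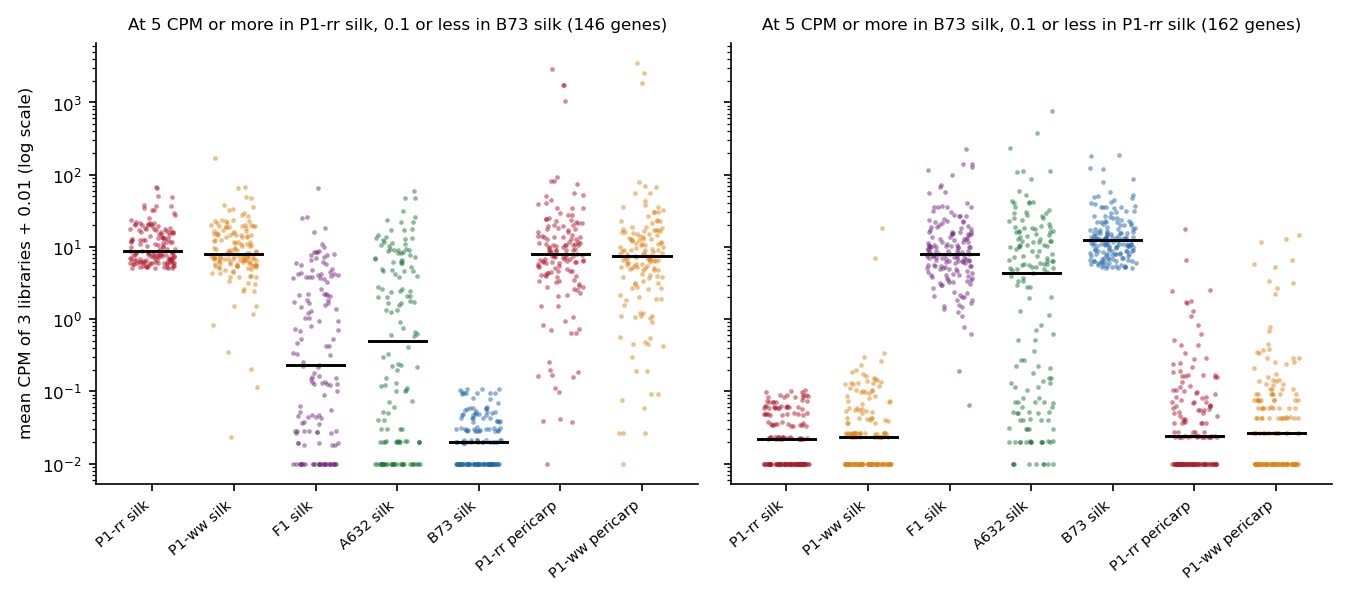
Mean level (CPM + 0.01, log scale) in 7 groups of the 146 genes read in P1-rr silk but at 0.1 CPM or less in B73 silk (left panel) and of the 162 genes in the opposite position (right panel); points are genes and bars medians, and points at 0.01 have no count. P1-ww silk and both pericarp groups lie with P1-rr silk in both panels, A632 silk spreads over the range in both, and F1 silk spreads in the left panel and lies mostly with B73 silk in the right one.

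The clearest genes of this kind had no count at all in 1 group. Zm00001d046754 had 62.1, 84.1 and 52.8 CPM in P1-rr and no count in B73. Set against a floor of 3 counts over the B73 group (0.0299 CPM), it was at least 2205-fold higher in P1-rr (adjusted p = 1.67e-08, edgeR). Zm00001d002319 had 37.7, 38.2 and 33.9 CPM in P1-rr and no count in B73, which is at least 1225-fold higher (adjusted p = 6.94e-10, edgeR). P1-ww silk read both genes at levels close to those of P1-rr, at means of 49.3 CPM for Zm00001d046754 and 32.3 CPM for Zm00001d002319. F1 and A632 silk had 0 to 4 counts of each in total.

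Zm00001d035400 had no count in P1-rr, against 189.5, 176.5 and 195.4 CPM in B73. It was at least 4889-fold lower in P1-rr at the floor of 3 counts over that group, 0.0382 CPM (adjusted p = 9.65e-09, edgeR). P1-ww silk and the pericarp of both stocks had no count either, while F1 silk averaged 138 CPM and A632 silk 237 CPM. Zm00001d052011 had no count in P1-rr, against 96.7, 144.2 and 120.7 CPM in B73, and was at least 3173-fold lower (adjusted p = 2.43e-10, edgeR). A632 silk had only 14 counts of it in all, and F1 silk averaged 115 CPM. In F1 protoplasts Zm00001d052011 was itself higher with 35S:P1, at 6.99, 4.44 and 8.76 CPM, against 0.433, 1.15 and 0.507 CPM with the empty vector (adjusted p = 0.00559, edgeR with the replicate block).

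Among genes counted in both groups, the largest increases were those of Zm00001d003046 and Zm00001d029360, with 1 count each over the B73 group. Zm00001d003046 had 22.0, 70.7 and 22.7 CPM in P1-rr, against 0.0293, 0 and 0 CPM in B73. The ratio was 3747, with an exact (Clopper-Pearson) 95% interval of 672 to 148067 that covers counting error only (adjusted p = 1.64e-08, edgeR). P1-rr replicate 2 stood far above the other replicates, and the fitted log2 change of 11.39 became 10.62 without it. Zm00001d029360 had 33.8, 41.0 and 35.6 CPM in P1-rr, against 0, 0 and 0.0334 CPM in B73, a ratio of 3681 (interval 660 to 145442; adjusted p = 6.85e-10, edgeR).

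Both of these genes also separated P1-rr from P1-ww, in silk and in pericarp. In P1-ww silk, Zm00001d003046 had 1.01, 1.34 and 1.17 CPM and Zm00001d029360 had 0.404, 0.278 and 0.342 CPM, far below every P1-rr library. P1-rr was above P1-ww by log2 changes of 4.96 ± 0.45 for Zm00001d003046 (adjusted p = 9.08e-06, edgeR) and 6.66 ± 0.29 for Zm00001d029360 (adjusted p = 5.65e-08, edgeR). In pericarp, Zm00001d003046 reached 1342, 731 and 1090 CPM in P1-rr, against 1.07, 0.775 and 1.78 CPM in P1-ww (log2 change 9.71 ± 0.45, adjusted p = 6.2e-05, edgeR). Zm00001d029360 averaged 91.5 CPM in P1-rr pericarp and 0.900 CPM in P1-ww pericarp. In protoplasts the genes parted: 35S:P1 raised Zm00001d003046 to 9.17, 1.3 and 6.11 CPM, against 0.0510, 0.211 and 0.0846 CPM with the empty vector (adjusted p = 0.00612, edgeR with the replicate block), while Zm00001d029360 had no count in 35S:P1 protoplasts and 1 count with the empty vector.

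The largest decreases among genes counted in both groups were those of Zm00001d008397 and Zm00001d035367, with 1 count each over the P1-rr group. Zm00001d008397 had 0, 0 and 0.0384 CPM in P1-rr, against 218.7, 113.0 and 211.7 CPM in B73. B73 stood above P1-rr by a ratio of 14016 (interval 2515 to 553626; adjusted p = 4.88e-10, edgeR). Zm00001d035367 had 0, 0 and 0.0384 CPM in P1-rr, against 138.9, 102.0 and 130.2 CPM in B73, and B73 stood above P1-rr by a ratio of 9666 (interval 1734 to 381806; adjusted p = 5.04e-11, edgeR). P1-ww silk was as low, with 8 counts of Zm00001d008397 and none of Zm00001d035367 in all, and F1 and A632 silk were high in both. Fitted changes of genes with a sole count turn on the library that holds it. Without that library they became 13.12 for Zm00001d003046, 13.08 for Zm00001d029360 (from 11.33), -15.42 for Zm00001d008397 (from -13.40) and -14.86 for Zm00001d035367 (from -12.85), and none of these is a bound.

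P1-ww silk served to place the P1-rr values, since the labels give both stocks the same inbred name. P1-ww against B73, which uses the same B73 libraries, called 16356 genes (64.8%), with 8531 higher in P1-ww (33.8%) and 7825 lower (31%), and 9063 at 2-fold or more (35.9%). P1-rr against P1-ww, which uses the same P1-rr libraries, called 1481 genes higher in P1-rr (5.87%) and 1659 lower (6.57%), with 1232 at 2-fold or more (4.88%). This last count rests on few libraries: 3140 calls in all became 1814 or 1449 when P1-rr replicate 1 or 2 was left out, and 1657 or 2061 when P1-ww replicate 2 or 3 was left out. It became 410 in the fit over all 27 libraries and 4982 in a fit of the 6 libraries alone. Neither comparison with B73 separates the P1 allele from the rest of the genome.

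The genes in which P1-rr stood apart from both B73 and P1-ww were few beside the whole. P1-rr was called above both in 656 genes, or 2.60% of those tested, and below both in 698, or 2.76%. A further 454 genes (1.80%) were called above B73 and below P1-ww, and 371 (1.47%) below B73 and above P1-ww. Both comparisons use the same P1-rr libraries, which favours calls in the same direction, so the sizes of these sets are a description. Without P1-rr replicate 1, 401 genes were above both and 395 below both, and without P1-rr replicate 2, 318 and 319. Without P1-ww replicate 2 the counts were 360 above both and 389 below both, and without P1-ww replicate 3, 449 and 446. The fit over all 27 libraries left 85 above both and 103 below both, and fits of the 6 libraries alone gave 1055 above both and 896 below both.

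Pericarp, whose libraries share nothing with silk but come from the same stocks, was read for these genes. Of the 656 genes above both, 553 were tested in pericarp, where 124 (22.4%) were higher in P1-rr than in P1-ww and 24 (4.34%) lower. Over all 22209 genes tested in pericarp, 5.7% were higher and 7.25% lower. Of the 698 genes below both, 623 were tested in pericarp, where 28 (4.49%) were higher and 108 (17.3%) lower. Of the genes above B73 and below P1-ww, 376 were tested there, with 14 (3.72%) higher and 49 (13.0%) lower. Of those below B73 and above P1-ww, 329 were tested, with 37 (11.25%) higher and 23 (6.99%) lower. In these sets too, the larger pericarp share went in the direction of P1-rr against P1-ww silk. The median log2 change in pericarp was 0.32 for the genes above both and -0.16 for those below both, beside 0.02 for all genes. The shares called in the same direction in pericarp moved with the silk fit: over all 27 libraries they were 69.7% (46 of 66) for genes above both and 35.3% (30 of 85) for genes below both, and in fits of the 6 libraries alone 16.2% and 18.5%. Leaving out a P1-rr or P1-ww silk library gave 20.8% to 31.35% for genes above both and 15.8% to 20.1% for genes below both. A difference that P1-rr and P1-ww plants carry in the rest of their genomes would appear in both tissues as well, and the part it has in these shares was not tested.

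Protoplasts of both arms came from the same hybrid. Of 581 genes above both that were tested there, 84 (14.5%) were higher with 35S:P1, against 5.19% of all genes tested in protoplasts. Of 658 genes below both, 37 (5.62%) were higher and 13 (1.98%) lower, against 1.08% lower over all genes. Of the genes above B73 and below P1-ww, 6.35% were higher with 35S:P1 and 2.54% lower. For those below B73 and above P1-ww, the shares were 8.77% and 0.58%. Protoplast counts are sensitive to the fit, as described with the gene lists below.

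Among the genes called below both stocks, Zm00001d050346 and Zm00001d012323 had the largest decreases from B73. Zm00001d050346 had 0, 0.0411 and 0 CPM in P1-rr, against 0.283, 0.232 and 0.244 CPM in P1-ww and 35.3, 26.2 and 33.0 CPM in B73. P1-rr lay below both stocks in every library, with adjusted p = 0.0044 against P1-ww and 1.3e-10 against B73 (edgeR), and B73 stood above P1-rr by a ratio of 2461 (interval 441.5 to 97251). Its fitted log2 change of -10.87 became -12.89 without P1-rr replicate 2, which holds the sole count. Zm00001d012323 had no count in P1-rr, against 0.0807, 0.0464 and 0.195 CPM in P1-ww and 4.31, 8.79 and 5.97 CPM in B73. It was at least 168.5-fold lower in P1-rr than in B73 (adjusted p = 5.83e-08, edgeR), and P1-ww, with 7 counts in all, was itself far below B73.

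Gene lists from pericarp and protoplasts were followed into P1-rr against B73, since none of their libraries enters that comparison. The pericarp lists still share the P1-rr stock with it. The part that other differences of this stock have in the shares was not tested. Genes that were both raised by 35S:P1 in protoplasts and higher in P1-rr pericarp numbered 125, of which 123 passed the filter in silk. In P1-rr silk 66 of them (53.7%) were higher than in B73 and 25 (20.3%) lower, beside 33.5% and 30.3% of all genes tested. Their median log2 change was 0.64, with quartiles of -0.28 and 1.72, beside 0.05 for all genes tested. Changes of 2-fold or more were called for 44 of them upward (35.8%) and 13 downward (10.6%), beside 17.3% and 17.2% of all genes tested. Without B73 replicate 2, 48.0% were higher and 20.3% lower.

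The level of these 125 genes, library by library, shows a narrow gap between P1-rr and B73. The median over the list was 29.0, 33.4 and 31.4 CPM in the P1-rr libraries, against 24.3, 27.8 and 24.6 CPM in the B73 libraries. The groups did not overlap, though B73 replicate 2 came close to P1-rr replicate 1. P1-ww lay well below both, at 14.3, 13.6 and 12.9 CPM, A632 lay at 25.6, 25.2 and 20.5 CPM, and F1 silk had the highest medians, at 51.0, 48.5 and 51.2 CPM. In pericarp the medians were 49.2, 57.6 and 60.15 CPM in P1-rr, against 6.91, 7.42 and 8.58 CPM in P1-ww, a contrast that helped to choose the list.

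The same 123 genes were read in P1-ww against B73, with the same B73 libraries. Of them, 35 (28.5%) were higher in P1-ww than in B73, beside 33.8% of all genes tested, and 58 (47.2%) were lower, beside 31%. Their median log2 change was -0.46. Between P1-rr and P1-ww silk, 55 (44.7%) were higher in P1-rr, beside 5.87% of all genes tested, and 3 (2.44%) were lower, beside 6.57%, with a median of 0.49. The list was formed in part from P1-rr against P1-ww in pericarp, so that this last count is no independent evidence.

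Genes of the list spanned a wide range in P1-rr against B73. Beside Zm00001d003046, the largest increase was that of Zm00001d044821, with 16.5, 17.3 and 15.7 CPM in P1-rr, against 0.0293, 0.0824 and 0.0668 CPM in B73. The log2 change was 8.01 ± 0.51 (adjusted p = 1.48e-08, edgeR), and P1-ww, A632 and F1 silk averaged 1.49, 1.25 and 0.225 CPM. The largest decrease was that of Zm00001d005002, with 0.354, 0.411 and 0.192 CPM in P1-rr, against 15.9, 35.1 and 16.3 CPM in B73 (log2 change -6.12 ± 0.40, adjusted p = 2.15e-08, edgeR). P1-ww silk, with 2 counts in all, was lower still than P1-rr by this measure (adjusted p = 0.0448, edgeR). Zm00001d048135 had 0.425, 0.616 and 0.768 CPM in P1-rr, against 4.02, 11.7 and 4.74 CPM in B73 (log2 change -3.48 ± 0.46, adjusted p = 1.81e-05, edgeR). P1-ww silk averaged 0.380 CPM of Zm00001d048135, and P1-rr was not called apart from it (log2 change 0.60 ± 0.56, adjusted p = 0.536, edgeR). Without B73 replicate 2 the changes from B73 were -5.73 for Zm00001d005002 and -2.94 for Zm00001d048135. Both genes were thus low beside B73 in P1-rr silk and in P1-ww silk alike. In protoplasts 35S:P1 raised both, and P1-rr pericarp exceeded P1-ww pericarp in both.

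Each source list alone was closer to the background. Of the 1267 genes higher in P1-rr pericarp (5.7% of 22209 tested), 1244 were tested in silk, where 503 (40.4%) were higher than in B73 and 378 (30.4%) lower. Of the 1611 genes lower in P1-rr pericarp (7.25%), 1476 were tested in silk, where 374 (25.3%) were higher and 558 (37.8%) lower. Of the 1305 genes raised by 35S:P1 in protoplasts (5.19% of 25127 tested), 1110 were tested in silk, where 382 (34.4%) were higher and 347 (31.3%) lower, which is near the 33.5% and 30.3% of all genes. Of the 272 genes lowered in protoplasts (1.08%), 229 were tested in silk, where 66 (28.8%) were higher and 69 (30.1%) lower. Genes raised in protoplasts but not higher in pericarp, 826 tested, had 260 higher (31.5%) and 275 lower (33.3%) in P1-rr silk. The pericarp lists thus leaned in their own direction in P1-rr silk, and the protoplast lists, taken whole, stayed near the background.

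**Figure D4:**
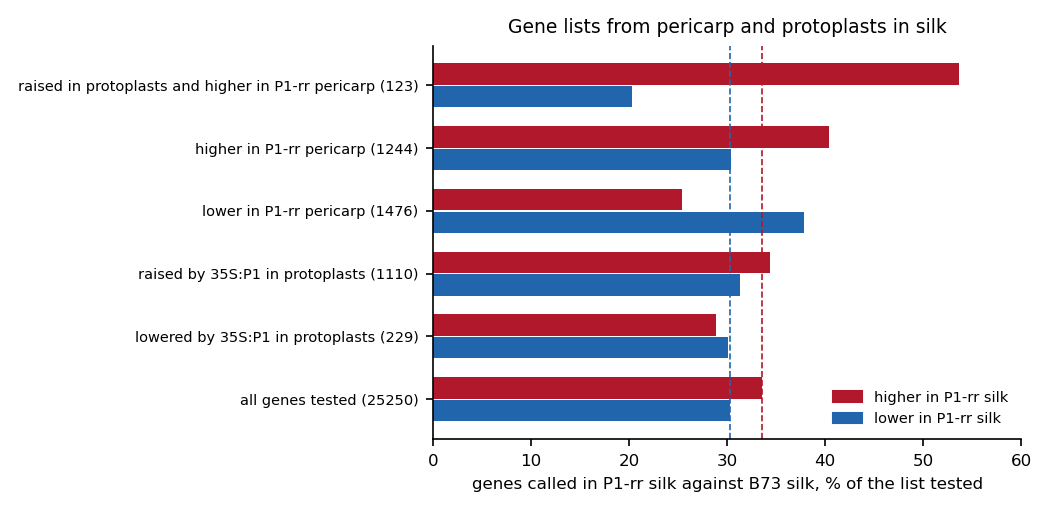
Share of each list called higher (red) or lower (blue) in P1-rr silk than in B73 silk, in percent of the list's genes tested in silk (their number in parentheses); dashed lines mark the shares over all 25250 genes tested, 33.5% and 30.3%. The genes shared by the pericarp and protoplast lists stand at 53.7% higher and 20.3% lower, while the protoplast lists alone lie near the dashed lines.

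Genes with the largest differences in pericarp and protoplasts were also followed. The 87 genes at least 8-fold higher in P1-rr pericarp, a threshold chosen after values were seen, had 78 genes tested in silk, of which 51 (65.4%) were higher in P1-rr than in B73 and 11 (14.1%) lower, beside 33.5% and 30.3% of all genes tested, with a median log2 change of 1.72. For P1-ww against B73 the same genes had 15 higher (19.2%) and 42 lower (53.8%), beside 33.8% and 31% of all genes tested, with a median of -2.05. The 357 genes raised 8-fold or more in protoplasts had 250 tested in silk, of which 97 (38.8%) were higher in P1-rr than in B73 and 65 (26.0%) lower. Their median log2 change was 0.35, beside 0.05 for all genes tested, so they leaned upward more than the whole list of raised genes. The reverse list, 29 genes lowered in protoplasts and lower in P1-rr pericarp, had 26 tested in silk. Of these, 11 (42.3%) were higher in P1-rr than in B73 and 6 (23.1%) lower, beside 33.5% and 30.3% of all genes tested. Their median log2 change was -0.02. For P1-ww against B73 the same 26 genes had 13 higher (50.0%) and 6 lower (23.1%). With 26 genes these shares rest on few members, and no lean is read from them.

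The lists depend on fits that are less settled than the silk comparison. The protoplast calls number 1577 with the replicate block and 35 without it, and leaving out a library gave 192 to 4213. The pericarp calls number 2878, or 1129 with the replicate block, and leaving out a library gave 839 to 4049. Redrawing the shared list from each of these fits gave 16 to 208 genes. The share higher in P1-rr silk then ran from 44.6% to 80.0% and the share lower from 0.0% to 27.03%, with more genes higher than lower in every version. In the fit of silk over all 27 libraries the share higher was 36.0% and the share lower 16.0%, with fewer genes called overall.

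Differences from B73 were spread over the whole set of gene identifiers. Identifiers of this annotation are numbered in order along the chromosomes, and they were cut into windows of 200 numbers, of which 256 held at least 30 tested genes. The share of genes called at 2-fold or more in P1-rr against B73 had a median of 34.9% over windows, with quartiles of 30.3% and 38.6%. The lowest window, which starts at number 49800, had 16.5%, and the highest, which starts at 35200, had 52.2%. P1-ww against B73 had its lowest (15.3%) and highest (53.6%) values in the same windows, with the same B73 libraries.

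P1-rr against P1-ww was uneven by comparison. The share called at 2-fold or more had a median of 4.37% over windows and ran from 0.0% to 26.1%, and 6 windows reached 15% or more. Of these, 4 follow each other from number 28600 to 29399, with 22.0%, 20.4%, 17.4% and 16.4% called, and the others start at 36600 (19.8%) and 44000 (26.1%). By its number, Zm00001d029360, named above for its difference from P1-ww, lies in the last of the 4 adjoining windows. What part this stretch has in the difference of that gene was not tested. In the 4 adjoining windows P1-rr against B73 stood at 38.1%, 29.2%, 29.4% and 44.2%, and P1-ww against B73 at 33.1%, 35.4%, 34.9% and 45.2%. The window at 36600 stood at 38.7% in P1-rr against B73 and 43.4% in P1-ww against B73, and the window at 44000 at 38.7% and 39.6%. All 6 windows lay inside the range of the other windows in both comparisons with B73.

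**Figure D5:**
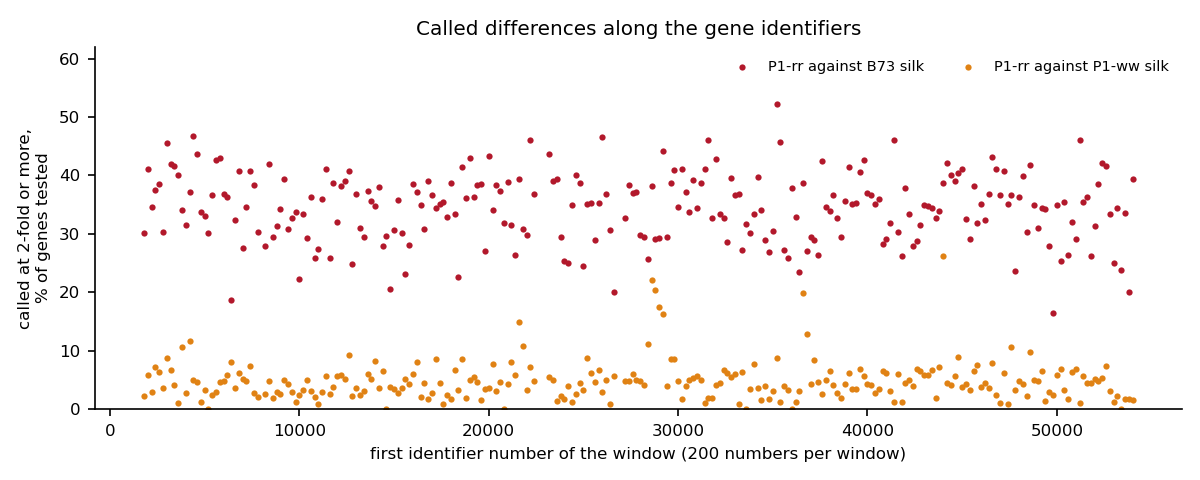
Share of tested genes called at 2-fold or more in windows of 200 gene identifier numbers (256 windows with 30 or more tested genes), for P1-rr against B73 silk (red) and P1-rr against P1-ww silk (orange). The red points lie between 16.5% and 52.2% along the whole axis, while the orange points lie mostly near their median of 4.37%, with 6 windows at 15% or more.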

How the data were processed

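The authors deposited a table of raw read counts per gene, without normalization, for 39005 genes and 27 libraries. Reads were single, 50 nt long, from a library kit that does not mark strand, per the labels' protocols. The submitters' processing notes list bcl2fastq 2.20.0, FastQC, Trimmomatic, Bowtie2 2.3.4.1 and HISAT2 2.0.4 with B73 RefGen_v4. The counting tool, its annotation and its handling of reads with several places are not stated in the sources used here, so near-identical gene copies and overlapping genes on opposite strands are uncertain. The 16 peak files were not used here.

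Genes were kept by filterByExpr and libraries scaled by TMM factors in edgeR 4.0.16 (R 4.3.3, with limma 3.58.1 loaded). Each group had 1 mean in a quasi-likelihood fit, followed by two-sided tests with Benjamini-Hochberg adjustment over all genes tested, called at an adjusted p under 0.05. The 15 silk libraries were fitted together. Pericarp was fitted alone, and protoplasts alone with the replicate number as a block. Deviations from the group means correlated between same-numbered protoplast libraries (r across genes 0.543, 0.658 and 0.815), a pairing that comes from the data and not from the labels. CPM uses the library total. The standard error of a log2 change is its size over the square root of its F statistic. Floors of 3 counts per group and exact 95% intervals cover counting error only. The silk fit was first tested on simulated counts with known changes in P1-rr against B73. The pericarp, protoplast and DESeq2 fits were not tested in this way. In the simulation only a small set of genes was changed, with as many raised as lowered. It therefore does not cover the setting here, in which most genes are called.

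Named genes are at most 2 higher and 2 lower per class. Except in the highest-level class, they have the largest absolute log2 change among called genes of at least 5 mean CPM in the higher group. Called genes of the highest-level class were instead ranked by their mean CPM in the higher group. The classes are genes counted in both groups, genes with no count in 1 group, genes with the highest level, genes on the shared protoplast and pericarp list, and genes that differ in the same direction from P1-ww. The members and lists were chosen with earlier results of these data known. Alternatives were DESeq2 size factors, the DESeq2 1.42.0 Wald test, no filter, a replicate block, other libraries in the fit and leaving out each library. Identifiers were looked for in a RefSeq table of another B73 assembly, which holds none of them, so no symbol or sequence is given.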

Additional observations from a re-analysis of the deposited data

How the results depend on the processing

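P1-rr silk against B73 silk kept its count of calls within 1.5 times under each alternative run except the fit over all 27 libraries: 14757 to 15518 calls when 1 library was left out, 16085 with DESeq2 size factors, 16643 without a filter, 16819 with the DESeq2 Wald test, 14863 with the 6 libraries alone, 15984 with a replicate block and 10117 over all 27 libraries. Of the 16116 calls, 9708 were among those 10117. Calls at 2-fold or more ran from 8473 to 8868 when 1 library was left out. Same-numbered P1-rr and B73 libraries correlated in their deviations by 0.0159, 0.108 and 0.0231, so they share only a number.

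P1-ww against B73 gave 10436 calls over all 27 libraries and 15102 to 15648 when 1 library was left out. P1-rr against P1-ww gave 4982 calls with the 6 libraries alone, 410 over all 27 libraries and 1449 to 2862 when 1 library was left out. Pericarp gave 4556 calls with DESeq2, 1129 with a replicate block, whose numbers did not pair the libraries (r of 0.129, -0.207 and -0.255), and 839 to 4049 when 1 library was left out. Protoplasts gave 3020 calls without a filter, 3152 with DESeq2, 35 with no replicate block and 192 to 4213 when 1 library was left out. The cause of these shifts was not tested.

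Redrawing the shared list was chosen after seeing the data. The share higher in P1-rr silk ran from 46.6% to 75.7%, and the share lower from 2.70% to 27.03%, when 1 library was left out. The share lower was 11.1% without 35S:P1 protoplast replicate 1, 11.4% without P1-rr pericarp replicate 2, and 11.7%, 10.96% and 9.68% without P1-ww pericarp replicates 1, 2 and 3. The share lower was 0.0% with the list drawn from protoplasts with no replicate block and 9.86% with pericarp under a replicate block. Of 204 alternative values for the 17 named genes in P1-rr silk against B73 silk, 202 kept their direction and their call, none reversed, and the 2 calls lost were those of Zm00001d027524 and Zm00001d023529 over all 27 libraries. Their values in the other comparisons were not recomputed under alternatives. Depth limits the genes with no or 1 count in a group, for which only a floor or a wide interval can be given.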
